A study of Homo sapiens with 6 samples.

Results

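Genes of autophagy and the lysosome, 10 in all and chosen by name, were followed through the 6 libraries of the series: ULK1, MAP1LC3B, GABARAPL2, SQSTM1, CTSB, CTSL, CTSZ, CTSD, LAMP1 and LAMP2. All 10 were found as protein-coding genes in the deposited table of 60648 genes. The libraries come from A549, an established human non-small cell lung cancer line, carrying either a control shRNA (shCtrl, labelled WT) or an shRNA against METTL16 (shM16), an RNA methyltransferase. Cells spent 2 h in starvation medium without amino acids or in complete medium, and every condition, the controls included, received cycloheximide (CHX), which halts elongating ribosomes, for 5 min. The conditions are shCtrl starved, shM16 starved and shM16 in complete medium, each with 1 library of input RNA and 1 of ribosome footprints, the fragments that ribosomes protect from RNase I. The labels do not say whether the shM16 cells are 1 clone or a pool. The combination of shCtrl with complete medium is not among the 6 libraries, so the response of shCtrl cells to starvation could not be estimated.

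With 1 library per condition and assay, no p-value is given and no difference could be set against a replicate spread. Each difference is a log2 ratio of counts scaled with TMM factors (trimmed mean of M values, which hold the typical gene near 0), with a 95% interval for counting error only. Reads amplified by PCR without molecular identifiers are not independent molecules, so the true error is larger. Dividing footprints by input RNA gives the translation efficiency of a gene. A gene is called where its ratio reaches 2-fold or more and the interval leaves out 0. Total counts ran from 465303 to 781831 per library. METTL16 was at 77.0 CPM (reads per 1e+06 of the TMM-scaled total) in the input RNA of starved shCtrl cells, at 19.8 in starved shM16 cells and at 25.4 in shM16 cells in complete medium. The 5 epithelial markers were detected in every library, apart from EPCAM at 0 reads in the starved shM16 input, and summed to between 1399 and 2654 CPM, with the lowest sum in starved shCtrl footprints and the highest in complete-medium footprints. Among them CDH1 was at 82.3, 238 and 391 CPM in the input RNA of starved shCtrl, starved shM16 and complete-medium shM16 cells. Its footprints were at 119, 387 and 443 CPM in the same order. KRT8 (1020, 1091 and 946 CPM) and KRT18 (592, 624 and 500 CPM) differed less in input RNA. The part of these markers in the results was not tested. The 4 genes typical of A549 with its KEAP1 mutation summed to between 5393 and 13734 CPM, and 5 fibroblast markers to between 4 and 33 reads per library. The 5 leukocyte and erythroid markers had 0 reads in every library, and of 3 alveolar markers 2 had 0 reads throughout.

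Autophagy encloses cytoplasm in a double membrane and delivers it to the lysosome, where acid hydrolases break it down and return amino acids to the cell. It is held back by mTORC1 when amino acids are plentiful, and the transcription factors TFEB and TFE3 switch on many lysosomal genes through the CLEAR element, whose core is CACGTG. Among the genes here, ULK1 is the kinase that starts autophagosome formation. MAP1LC3B (LC3B) and GABARAPL2 are ubiquitin-like ATG8 proteins that are attached to the growing membrane, and SQSTM1 (p62) is a receptor that carries ubiquitinated cargo to them and is itself degraded. CTSB, CTSL and CTSZ are cysteine cathepsins, CTSD is an aspartic cathepsin, and LAMP1 and LAMP2 are the heavily glycosylated proteins of the lysosomal membrane.

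The upstream sequences of 3 members are shown because LAMP1 and CTSD were the members with a CACGTG and MAP1LC3B, without one, had the widest RNA difference of the 10. They are the 250 bases before the annotated start, 5' to 3' on the gene's strand, from RefSeq (GRCh38.p14), with each CACGTG in capitals. CACGTG reads the same on both strands, so each match was counted once.
LAMP1: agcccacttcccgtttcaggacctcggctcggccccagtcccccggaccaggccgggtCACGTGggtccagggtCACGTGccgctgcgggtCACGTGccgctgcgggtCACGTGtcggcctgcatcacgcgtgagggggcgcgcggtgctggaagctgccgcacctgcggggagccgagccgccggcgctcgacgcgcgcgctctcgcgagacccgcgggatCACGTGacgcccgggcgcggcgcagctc
CTSD: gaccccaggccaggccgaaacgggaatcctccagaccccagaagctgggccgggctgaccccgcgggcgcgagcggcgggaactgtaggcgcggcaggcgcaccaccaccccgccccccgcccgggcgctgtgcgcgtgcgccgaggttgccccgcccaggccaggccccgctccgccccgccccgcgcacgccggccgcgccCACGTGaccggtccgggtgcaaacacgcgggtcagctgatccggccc
MAP1LC3B: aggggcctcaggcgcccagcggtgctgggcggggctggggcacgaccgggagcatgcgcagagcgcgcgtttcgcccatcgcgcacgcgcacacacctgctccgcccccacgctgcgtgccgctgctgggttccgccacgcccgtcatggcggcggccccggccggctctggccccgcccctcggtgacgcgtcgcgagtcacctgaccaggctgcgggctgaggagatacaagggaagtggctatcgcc
The LAMP1 window lies at chr13:113296989-113297238 on the plus strand, that of CTSD at chr11:1763928-1764177 on the minus strand and that of MAP1LC3B at chr16:87392086-87392335 on the plus strand. LAMP1 holds 5 CACGTG, beginning at -192, -176, -159, -142 and -28 relative to the start, and CTSD holds 1 at -47. Of 35116 such windows over 27305 genes, 6.34% hold at least 1 CACGTG, and 1 window, that of LAMP1, holds 5 or more. RefSeq windows were found for 8 of the 10 members (not CTSB and LAMP2), and the windows of ULK1, MAP1LC3B, GABARAPL2, CTSL, CTSZ and the 3 starts of SQSTM1 hold none. A match is a description of the letters and not evidence of binding.

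Together the 10 genes took 0.437% of the input counts of starved shCtrl cells (exact Clopper-Pearson 95% interval 0.419% to 0.455%), 0.311% in starved shM16 cells (0.295% to 0.327%) and 0.417% in shM16 cells in complete medium (0.403% to 0.432%). Their share of footprint counts was 0.787% (0.768% to 0.807%), 0.527% (0.508% to 0.547%) and 0.419% (0.404% to 0.434%) in the same order. Nuclear protein-coding genes as a whole took 79.0%, 64.4% and 66.0% of the footprint counts, and the part of that difference in the members' shares was not tested.

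Per gene length, in TPM, the order in the input RNA of starved shCtrl cells was SQSTM1 at 237, CTSB at 182, CTSL at 137, CTSD at 71.8, LAMP1 at 50.1, MAP1LC3B at 38.8, GABARAPL2 at 33.3, LAMP2 at 33.1, ULK1 at 21.1 and CTSZ at 9.39. LAMP1 and MAP1LC3B, MAP1LC3B and GABARAPL2, and GABARAPL2 and LAMP2 have overlapping counting intervals, so their order within those pairs is not resolved. In shM16 cells in complete medium MAP1LC3B moved up to the 3rd place, at 110 TPM, level within counting error with CTSB at 104. The footprints of starved shCtrl cells put SQSTM1 first at 235 TPM and CTSL next at 204, and CTSD next to last at 5.83, level with CTSZ at 6.05 and ULK1 at 4.60. These levels depend on the lengths in the deposited table, which run from 3010 bases for GABARAPL2 to 19384 for CTSZ.

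**Figure D1:**
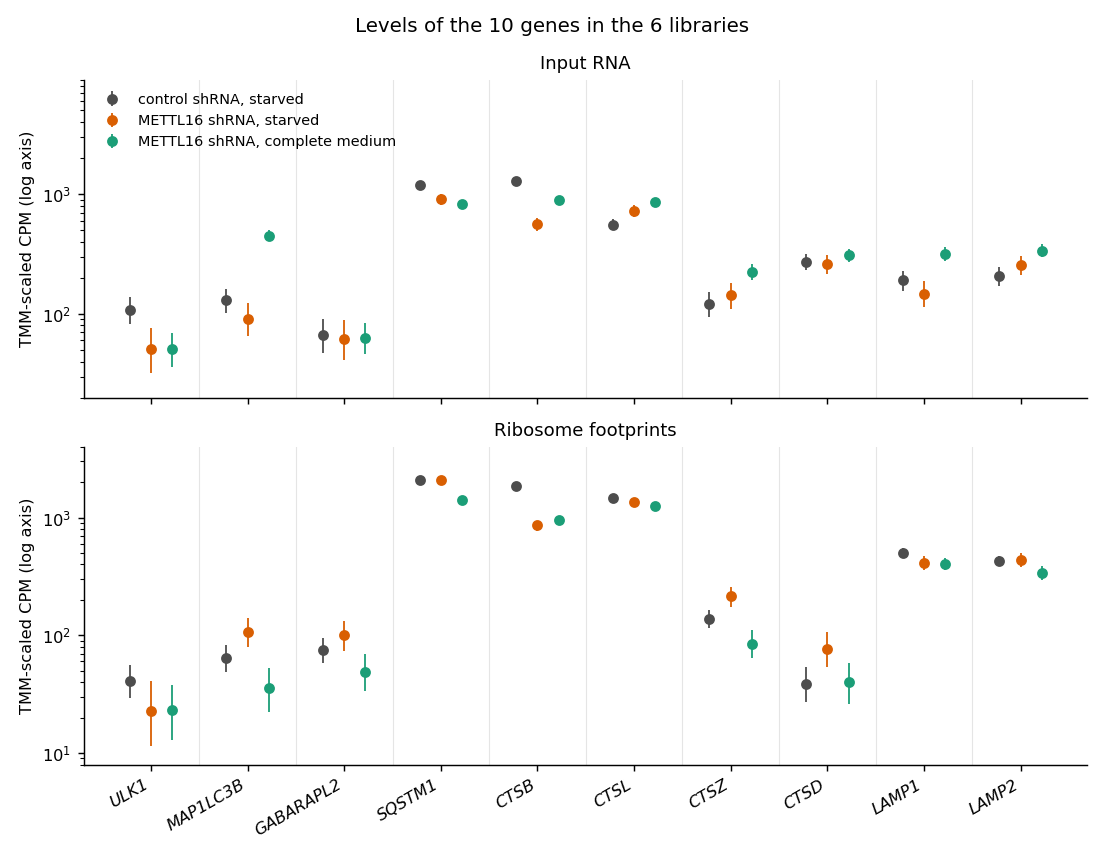
TMM-scaled CPM (log axis) of the 10 genes in input RNA (top) and footprints (bottom); each point is 1 library and each bar its 95% Poisson counting interval. MAP1LC3B input RNA stands at 450 CPM in shM16 cells in complete medium against 130 and 90.4 in the starved libraries, while its footprints are lowest there, at 35.4.

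The first comparison sets starved shM16 cells against starved shCtrl cells, and its ratios are called the knockdown difference. METTL16 knockdown cannot be told apart here from other differences between the lines or libraries. CTSB was the member that differed in both RNA and footprints. In input RNA CTSB stood at 1274 CPM in starved shCtrl cells, 558 in starved shM16 cells and 890 in shM16 cells in complete medium, from 728, 253 and 666 reads. Its footprints stood at 1835, 856 and 956 CPM, so both shM16 libraries lay below the shCtrl library in both assays. In bulk samples fewer cells with the transcript and less of it per cell cannot be told apart. The knockdown difference was -1.19 in RNA (-1.40 to -0.98) and -1.10 in footprints (-1.26 to -0.94), and 95 of 3876 genes had a lower RNA ratio. CTSB (ENSG00000164733.22, GRCh38 chromosome 8, 11842524 to 11868087) had a translation efficiency ratio of 0.09 (-0.17 to 0.35), or -0.13 with total counts as the scale, which is not a detectable difference at this depth.

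ULK1 (ENSG00000177169.10, chromosome 12, 131894622 to 131923150) had 61, 23 and 38 input reads, which is 107, 50.7 and 50.8 CPM in the order starved shCtrl, starved shM16 and shM16 in complete medium. Here too both shM16 libraries were low, and the knockdown difference in RNA was -1.06 (-1.83 to -0.36), or -0.90 and short of 2-fold with a pseudocount of 5. ULK1 footprints numbered 38, 11 and 15, below the count minimum, with a ratio of -0.80 (-1.96 to 0.15). The other ATG8 and receptor genes were not called in RNA. SQSTM1 (ENSG00000161011.20, chromosome 5, 179806393 to 179838078) had RNA at 1187, 902 and 824 CPM, a knockdown ratio of -0.40 (-0.58 to -0.22), while its footprints were at 2077, 2093 and 1402 CPM, a ratio of 0.01 (-0.10 to 0.12), or -0.34 with total counts and -0.054 with DESeq2 size factors. GABARAPL2 (ENSG00000034713.8, chromosome 16, 75566379 to 75577881) had a ratio of -0.10 (-0.87 to 0.63) in RNA and of 0.42 (-0.15 to 0.97) in footprints.

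MAP1LC3B and CTSD were the members called in translation efficiency between the starved lines, both higher in shM16 cells. MAP1LC3B had 74 and 41 input reads and 59 and 51 footprint reads in starved shCtrl and shM16 cells. Its RNA ratio was -0.51 (-1.11 to 0.05), its footprint ratio 0.73 (0.16 to 1.30) and its translation efficiency ratio 1.24 (0.48 to 2.01). If the starved shM16 input is replaced by the shM16 input from complete medium, the MAP1LC3B value turns to -1.06 (-1.71 to -0.41). That value sets starved footprints against RNA from another medium, so it carries the RNA difference between media and is not a translation efficiency. It shows how far the ratio leans on the input library and is not an independent check. CTSD (ENSG00000117984.15, chromosome 11, 1752755 to 1763927) had 155 and 118 input reads and 36 and 37 footprint reads. Its footprint ratio was 0.98 (0.28 to 1.68) and its translation efficiency ratio 1.04 (0.30 to 1.78), which falls short of 2-fold with total counts, at 0.81, and with the replaced input, at 0.80.

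The remaining cathepsins and the LAMP genes were not called in any measure, though some of their intervals leave out 0. CTSL (ENSG00000135047.16, chromosome 9, 87726119 to 87731469) had an RNA ratio of 0.38 (0.15 to 0.60), a footprint ratio of -0.10 (-0.23 to 0.04) and a translation efficiency ratio of -0.47 (-0.73 to -0.21). CTSZ (ENSG00000101160.15, chromosome 20, 58995185 to 59007254) had 0.25 (-0.26 to 0.76) in RNA and 0.64 (0.25 to 1.03) in footprints. LAMP1 (ENSG00000185896.11, chromosome 13, 113297239 to 113323672) stood at -0.37 (-0.83 to 0.08) in RNA and -0.28 (-0.53 to -0.04) in footprints. LAMP2 (ENSG00000005893.16, chromosome X, 120426148 to 120469349) stood at 0.30 (-0.09 to 0.68) in RNA and at 0.02 (-0.23 to 0.26) in footprints, or at -0.33 in footprints with total counts and -0.045 with DESeq2 size factors. Neither LAMP gene was called here, though LAMP1 reaches -1.01 in translation efficiency with the replaced input.

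Counting all 10, 2 were called lower in RNA (CTSB and ULK1), where 9.6% of all genes were called, 5.03% higher and 4.57% lower. In footprints 1 was called lower (CTSB), beside 7% of all genes, 3.96% higher and 3.03% lower. For translation efficiency 2 were called higher, beside 10.4% of all genes, 4.88% higher and 5.48% lower. The median over the 10 was -0.23 in RNA, 0.02 for footprints and 0.32 for translation efficiency, beside 0.04, 0.01 and -0.004 over all genes. With total counts the all-gene footprint median is -0.34, and the members' footprint values move down with it.

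**Figure D2:**
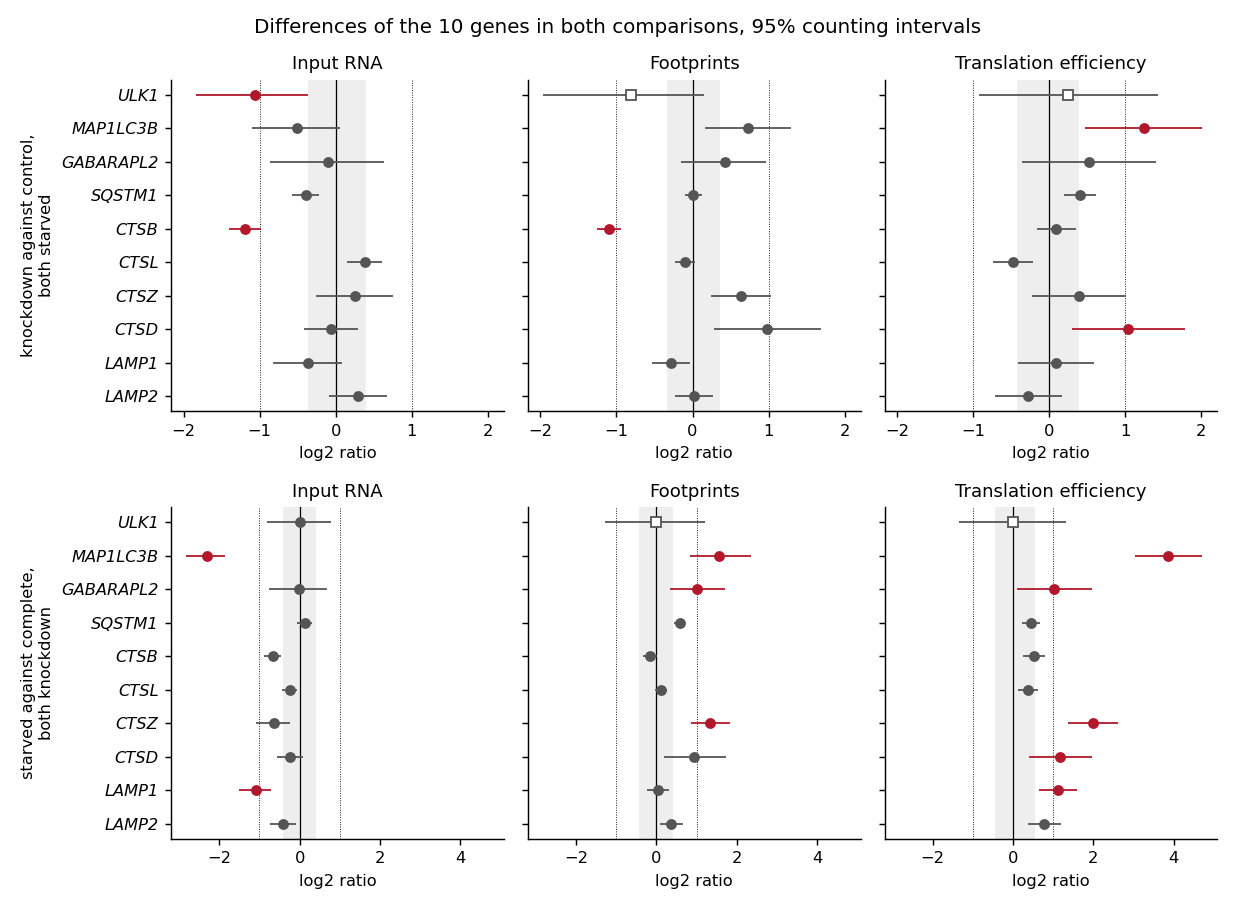
Log2 ratios of the 10 genes in input RNA, in footprints and for translation efficiency, for knockdown against control (top) and starved against complete medium (bottom). Bars are 95% counting intervals, red marks called genes, open squares the values of ULK1 below the count minimum, the grey band the middle 50% of all genes, and dotted lines 2-fold; all 9 measured members lie above 0 in translation efficiency at bottom right.

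Within shM16 cells, the starved libraries were then set against those from complete medium, which addresses the response to amino acid withdrawal. Input RNA of the members was level or lower after starvation while footprints were level or higher, and all 9 measured members had a translation efficiency ratio above 0, from 0.37 for CTSL (which turns negative with another input library) to 3.87 for MAP1LC3B. ULK1, the member below the count minimum, stood at -0.01 (-1.33 to 1.32). In translation efficiency 5 members were called higher: MAP1LC3B, CTSZ, CTSD, LAMP1 and GABARAPL2. Among all genes 16.5% were called in this measure, 6.91% higher and 9.56% lower, and 53.5% had a ratio above 0. The median over the 10 was 0.90 against 0.06 over all genes. This comparison shares the starved shM16 libraries with the first one.

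MAP1LC3B (ENSG00000140941.14, chromosome 16, 87392336 to 87404774) differed most. Its input RNA was at 90.4 CPM in starved shM16 cells against 450 in complete medium, from 41 against 337 reads, and at 130 CPM in starved shCtrl cells. Footprints went the other way, at 106 CPM in starved shM16 cells against 35.4 in complete medium, from 51 against 23 reads, and at 63.9 in starved shCtrl cells. The complete-medium library is thus the highest of the 3 in RNA and the lowest in footprints. The differences were -2.30 in RNA (-2.82 to -1.85), with 3 of 3876 genes lower, and 1.57 in footprints (0.85 to 2.36), with 36 of 3431 genes higher. No other gene of the 2866 measured had a higher translation efficiency ratio than its 3.87 (3.02 to 4.71). A large part of that value comes from 1 library, the complete-medium input: with the starved shCtrl input in its place, an alternative chosen after the data were seen, the ratio is 2.08 (1.19 to 2.97). The near-identical gene MAP1LC3B2 had at most 2 reads in any library. How reads that match both genes were counted is not given in the sources used here. That low count therefore does not show whether MAP1LC3B lost such reads.

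**Figure D3:**
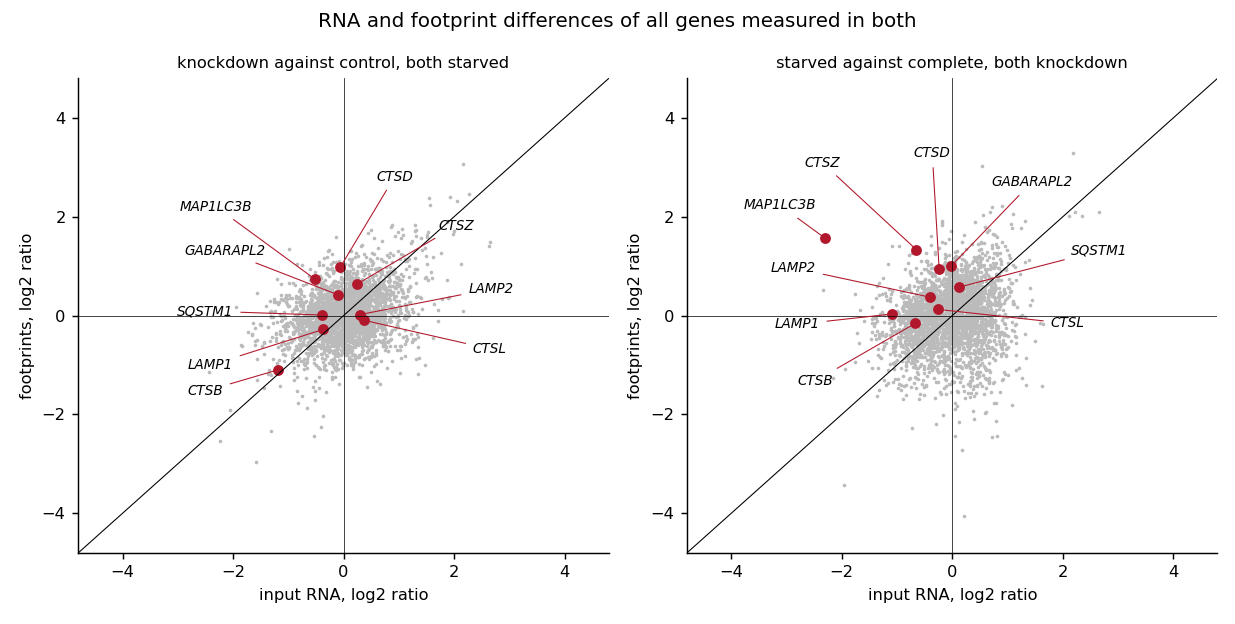
Footprint against input RNA log2 ratios of the 2866 genes measured in both (grey) and of the 9 measured members (red), for both comparisons; on the diagonal the ratio is the same in both. In the right panel all 9 members lie above the diagonal, MAP1LC3B farthest, at -2.30 in RNA and 1.57 in footprints.

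GABARAPL2, the other ATG8 gene, had level RNA, at 61.7 CPM starved and 62.8 in complete medium (28 and 47 reads). Its footprints were at 99.8 against 49.2 CPM, from 48 and 32 reads, and at 74.7 in starved shCtrl cells. The footprint ratio was 1.01 (0.34 to 1.71) and the translation efficiency ratio 1.03 (0.10 to 1.95), both just past 2-fold. They fall short of it with a pseudocount of 5, at 0.95 and 0.89, as does the footprint ratio with DESeq2 size factors, at 0.95. SQSTM1, the cargo receptor, had a footprint ratio of 0.58 (0.45 to 0.71) over an RNA ratio of 0.13 (-0.05 to 0.31). Its 1007 and 911 footprint reads give a translation efficiency ratio of 0.45 (0.23 to 0.67), under 2-fold with an interval above 0.

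The cathepsins differed among themselves. CTSZ RNA stood at 143 CPM starved against 226 in complete medium, from 65 and 169 reads, and its footprints at 214 against 84.6 CPM, from 103 and 55 reads. That is -0.65 in RNA (-1.09 to -0.23), 1.33 in footprints (0.85 to 1.84) and 1.98 in translation efficiency (1.36 to 2.61), with 15 genes higher. Like MAP1LC3B, CTSZ had an RNA interval below 0 and footprints called higher, and its translation efficiency ratio is 1.09 with the starved shCtrl input in place of the complete-medium one. CTSD had 260 against 307 CPM in RNA and 76.9 against 40.0 CPM in footprints (37 and 26 reads), and its translation efficiency ratio was 1.17 (0.39 to 1.96), or 0.99 with the replaced complete-medium input. CTSB and CTSL, the abundant cysteine cathepsins, had footprint ratios of -0.16 (-0.34 to 0.02) and 0.13 (-0.03 to 0.27). Their translation efficiency ratios were 0.51 (0.24 to 0.79) and 0.37 (0.13 to 0.62), and that of CTSL is -0.25 with the replaced complete-medium input.

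LAMP1 RNA was at 148 CPM starved, 317 in complete medium and 191 in starved shCtrl cells, from 67, 237 and 109 reads. Its footprints were at 414, 405 and 502 CPM in that order, so the 3 footprint libraries lay closer together than the RNA libraries. The RNA ratio was -1.09 (-1.51 to -0.70), the footprint ratio 0.03 (-0.24 to 0.30), or -0.033 with DESeq2 size factors, and the translation efficiency ratio 1.12 (0.65 to 1.60). With the replaced complete-medium input LAMP1 is at 0.40 (-0.11 to 0.91) and no longer called. LAMP2 had -0.41 in RNA (-0.74 to -0.08), 0.37 in footprints (0.09 to 0.65) and 0.78 in translation efficiency (0.36 to 1.20), the last of which is 0.08 with the replaced input.

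Across the 10, 2 were called lower in RNA (MAP1LC3B and LAMP1) and 3 higher in footprints (MAP1LC3B, GABARAPL2 and CTSZ), and 0 the other way. Of all genes 7.17% were called in RNA, 3.02% higher and 4.15% lower, and 12.1% in footprints, 5.39% higher and 6.73% lower. Their medians were -0.33 in RNA and 0.48 in footprints, beside 0.01 in each over all genes. With the replaced complete-medium input 4 members are called higher in translation efficiency, with a median of 0.99 over the 9 measured. They are MAP1LC3B, GABARAPL2, CTSZ and CTSB, of which CTSB, at 1.03 (0.76 to 1.31), is gained while LAMP1 and CTSD are lost. More of all genes are called with that input too: 306 of 2866 higher and 364 lower, against 198 and 274 in the main setting. The all-gene median is then -0.05.

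Translation efficiency can also be read within each condition, relative to the median of the 2866 genes measured. The counts are per gene and do not separate reads inside and outside the coding sequence. A rank between genes is therefore a rank of that ratio, not a measure of how well each mRNA is translated. CTSD was far below that median in all 3 conditions, at -2.73 (-3.25 to -2.21) in starved shCtrl cells, -1.66 (-2.19 to -1.13) in starved shM16 cells and -2.82 (-3.40 to -2.24) in complete medium. Only 18, 142 and 7 of the 2866 genes lay lower, in the same order. CTSD thus had about as much input RNA per length as LAMP1 in complete medium (66.5 and 68.0 TPM) but 3.48 against 34.9 TPM of footprints. The RefSeq gene PRADX overlaps CTSD, and the strand used for counting is not given in the sources used here, so reads of CTSD and PRADX cannot be told apart. SQSTM1, which overlaps MGAT4B and MRNIP in RefSeq, was above the median everywhere, at 0.86, 1.30 and 0.86.

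LAMP1 was among the highest in both starved libraries, at 1.45 (1.15 to 1.75) in shCtrl and 1.56 (1.17 to 1.96) in shM16 cells, with 97.6% and 97.5% of genes lower, and stood at 0.45 (0.20 to 0.70) in complete medium. CTSL was at 1.45, 1.00 and 0.64 and LAMP2 at 1.11, 0.87 and 0.10 in the order starved shCtrl, starved shM16 and complete. CTSZ was at 0.24, 0.66 and -1.31, and MAP1LC3B at -0.96 (-1.45 to -0.47), 0.31 (-0.28 to 0.90) and -3.55 (-4.15 to -2.94). In complete medium 3 genes lay below MAP1LC3B. For CTSB, CTSL, CTSZ, LAMP1, LAMP2, MAP1LC3B and GABARAPL2 the complete-medium value was the lowest of the 3, with overlapping intervals for GABARAPL2. For CTSD it lay within counting error of the starved shCtrl value, for SQSTM1 the same, and for ULK1, at -1.31, -1.03 and -1.01, all intervals overlapped. In the authors' deposited table, where the ratio is not set against the median gene, the translation efficiency of MAP1LC3B is 0.279 in starved shCtrl, 0.443 in starved shM16 and 0.0316 in shM16 cells in complete medium.

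**Figure D4:**
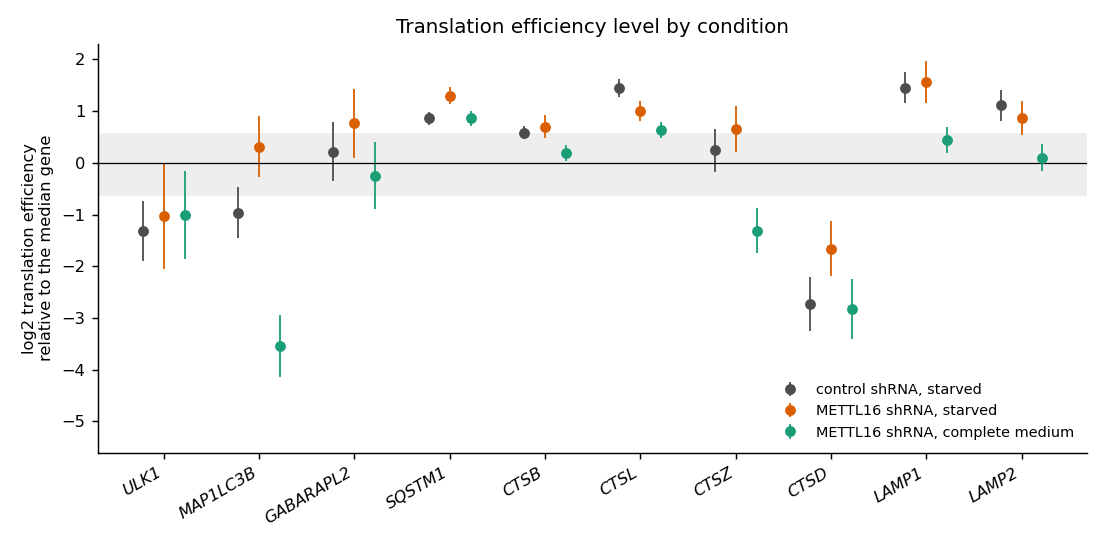
Log2 translation efficiency of each gene relative to the median of the 2866 genes measured, 1 point per condition with its 95% counting interval; the grey band spans the middle 50% of genes. CTSD lies below the band in all 3 conditions, as does ULK1, which is below the count minimum in footprints. MAP1LC3B and CTSZ lie below it in complete medium, at -3.55 and -1.31, and MAP1LC3B also in starved shCtrl cells, at -0.96.

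The wider pathway was described with 8 gene lists, which are not a test of the members. Of 29 other initiation and conjugation genes, 5 passed the count minimum in each assay and 2 in both. Between the starved lines none of them was called, with VMP1, a scramblase of the ER, highest in RNA at 0.86 (0.52 to 1.20). Between media TMEM41B, also an ER scramblase, was lower in RNA at -1.42 (-2.37 to -0.64) and higher in translation efficiency at 1.22 (0.18 to 2.25), the latter 0.49 and not called with the replaced complete-medium input and 1.01 (-0.02 to 2.04) with a pseudocount of 5.

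The other autophagy receptors had negative medians of translation efficiency, beside 0.41 (0.20 to 0.62) between the starved lines and 0.45 between media for SQSTM1. Their 7 measured members had a median of -0.53 between the starved lines, with 1 called higher, TOLLIP at 1.00 (0.03 to 1.97), and of -0.63 between media, with 1 called lower, OPTN (optineurin) at -1.65 (-2.71 to -0.60). The TOLLIP call ends with total counts (0.78), DESeq2 size factors (0.98) and a pseudocount of 5 (0.93). Under both of those scalings BNIP3L is called lower instead, at -1.22 and -1.02 against -0.99, so the direction of the list's 1 call rests on the scale. The OPTN call ends with the replaced complete-medium input, at -0.95, while TOLLIP is then called higher, at 1.40 (0.37 to 2.44). In other lists this replacement adds calls between media, lower for CTSS (-2.52), ATP6V0A1 (-2.70) and VMP1 (-1.15) and higher for ATP6V1C1 (1.04). The replaced starved shM16 input adds lower calls between the starved lines for TMEM41B (-1.08) and M6PR (-1.14). In RNA their median between media was 0.52, and 2 were called higher in starved cells, the mitophagy receptor gene BNIP3L at 1.11 (0.57 to 1.66) and TAX1BP1 at 1.06 (0.45 to 1.69). OPTN footprints were lower, at -1.07 (-1.98 to -0.27), or -0.86 and not called with a pseudocount of 5. The all-gene medians beside these values lie between -0.004 and 0.06.

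Other lysosomal hydrolases and activators had 21 measured members in RNA and in translation efficiency and 23 in footprints, of 36. Between media their medians were -0.40 in RNA, with 0 called, -0.22 in footprints, with GUSB (beta-glucuronidase) lower at -1.13 (-1.85 to -0.49; -0.99 with a pseudocount of 5), and 0.21 in translation efficiency, with LGMN (legumain) higher at 1.16 (0.34 to 1.99; 0.81 and not called with the replaced complete-medium input). Between the starved lines CTSS, another cysteine cathepsin, was higher in RNA at 1.70 (0.81 to 2.74) and lower in translation efficiency at -1.81 (-2.83 to -0.78). DPP7, a dipeptidyl peptidase, was lower in RNA at -1.25 (-2.08 to -0.53) and higher in translation efficiency at 1.33 (0.32 to 2.34), and NAGLU, which degrades heparan sulfate, was higher in translation efficiency at 1.06 (0.31 to 1.80). The NAGLU call ends with total counts (0.83) and with the replaced starved shM16 input (0.35), and that of DPP7 in translation efficiency with the latter (0.73). The list medians in that comparison were 0.03 for RNA, 0.16 for footprints and -0.03 for translation efficiency, the first -0.097 and the second -0.19 with total counts and the first -0.016 with DESeq2 size factors.

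V-ATPase genes, whose products acidify the lysosome, had a translation efficiency median of 0.61 between media over 10 of 16 members, with 1 called higher, ATP6V0B at 1.23 (0.63 to 1.83), which is 0.35 and not called with the replaced complete-medium input. In footprints 1 of 14 was called lower, ATP6V0A1 at -1.69 (-2.33 to -1.12). Between the starved lines ATP6V0A1 was higher in RNA at 1.02 (0.20 to 1.89) and lower in translation efficiency at -1.63 (-2.60 to -0.65), and its RNA call ends with total counts (0.89), DESeq2 size factors (0.97) and a pseudocount of 5 (0.92). The list median in translation efficiency was 0.07, or -0.15 with total counts. Other lysosomal membrane genes had a translation efficiency median of 0.03 between media over 5 members, with NPC2, the soluble cholesterol carrier kept in this list, lower at -1.06 (-1.62 to -0.50), and none was called between the starved lines.

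Among the genes that sort hydrolases by mannose 6-phosphate, the receptor gene M6PR had fewer footprints in starved shM16 than in starved shCtrl cells, at -1.05 (-1.44 to -0.69; -0.99 with a pseudocount of 5). IGF2R had less RNA in starved shM16 cells than in those in complete medium, at -1.07 (-1.49 to -0.69). The list has 4 measured members in RNA and 3 in footprints. Of 3 measured cathepsin inhibitors CST3 (cystatin C) was higher in translation efficiency between media, at 1.03 (0.57 to 1.49), or 0.89 with the replaced complete-medium input and 1.00 (just under 2-fold) with a pseudocount of 5, with 0 called in the other measures or between the starved lines. The list of TFEB, TFE3 and MITF and their regulators had 4 measured members in RNA and 2 in footprints of 10, with 0 called. Those in RNA were TFE3, FNIP1, PPP3CA and YWHAZ, and those in footprints PPP3CA and YWHAZ. TFEB and MITF passed the count minimum in neither assay, so nothing is said of them. With total counts PPP3CA is called lower between the starved lines, at -1.05 in RNA and -1.21 in footprints.

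**Figure D5:**
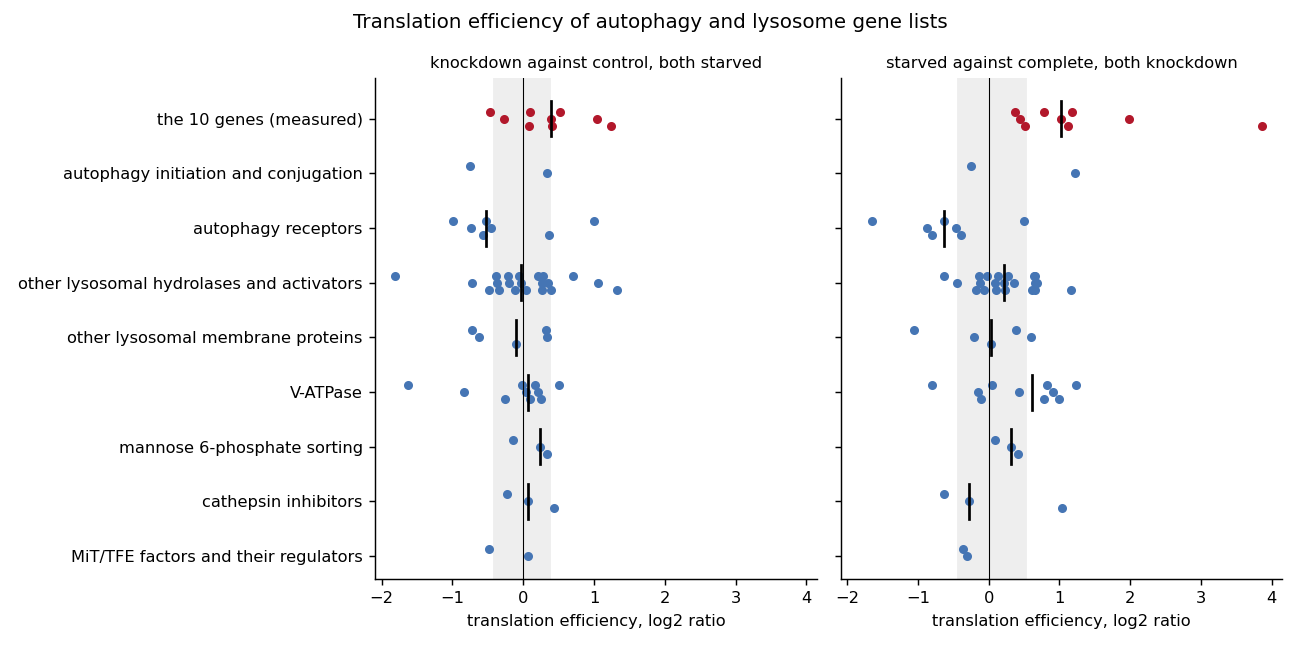
Translation efficiency log2 ratios of every measured gene of the 8 lists (blue) and of the 9 measured members (red), for both comparisons; vertical bars are medians where at least 3 genes were measured, and the grey band is the middle 50% of all genes. Between media (right) the members have a median of 1.03 over the 9 measured, V-ATPase genes 0.61 and autophagy receptors -0.63.

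For the 5 members with a mean of at least 100 reads in both assays, the genes with the most similar pattern were found by Euclidean distance over the 6 libraries, on log2 levels centred within each assay, among 690 genes. LAMP2 was nearest to ADAM9 at a distance of 0.07 and then to CTSL at 0.21, against a median distance of 0.88 to all 690. CTSL was nearest to GOLM1 at 0.18 and then to LAMP2. SQSTM1 was nearest to ACTB and PSMB5, both at 0.14, and LAMP1 to CLU at 0.31 and BSG at 0.32. CTSB had more distant neighbours, S1PR3 at 0.34 and F2RL1 at 0.44, against a median distance of 1.46.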

How the data were processed

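Input RNA and ribosome footprints of 3 conditions were measured in 6 libraries. Per the submitters' processing notes, the tools include STAR 2.7.5c and Bowtie2 2.2.5, with cutadapt 2.8 and featureCounts 2.0.1 also named, and the build is GRCh38; parameters are not given in the sources used here. The authors deposited raw counts per gene with a gene length as another column, and a table with TPM values and the ratio of footprint to input TPM (translation efficiency). A record broken over 3 lines was left out of the counts.

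TMM factors came from edgeR 4.0.16 (R 4.3.3) over genes with a mean of at least 30 counts in the 3 libraries of an assay, the minimum for all tallies (3876 genes in RNA, 3431 in footprints, 2866 in both). Log2 ratios used a pseudocount of 0.5, with exact conditional binomial (Clopper-Pearson) 95% intervals, or a Poisson delta-method interval for translation efficiency. TPM was recomputed as counts over length, scaled over all genes. A floor of 3 counts corresponds to 3.25 to 6.61 CPM. Alternatives were total counts, DESeq2 1.42.0 size factors, protein-coding genes alone, a minimum of 10, a pseudocount of 5 and a replaced input library. The replaced input comes from another condition, so values with it carry the RNA difference between the inputs and are not translation efficiencies. They show how far a ratio leans on its input library. The calls were tested on data simulated with counting error alone. That test does not cover differences between replicate libraries or PCR duplication. Intervals came from scipy 1.17.1 under Python 3.11.15, with pandas 2.3.3 for tables.

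Samples were grouped by their titles. The members and lists were chosen with earlier results of these data known. Named genes are the 10 members, the highest, lowest or called members of each list, given in part, and the 2 genes nearest in pattern. Coordinates are from RefSeq. A comparison of the members' proteins was planned and not made.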

Additional observations from a re-analysis of the deposited data

How the results depend on the processing

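Of the recomputed counts of called members and member medians, 60 stayed close to the values reported and 4 did not. A count was judged by its total alone, not by which members were called or in which direction. A median was judged against the medians of the members' interval limits, which is a wide range. In footprints between the starved lines the median over the 9 measured members is -0.33 with total counts against 0.02, a setting that moves the all-gene median to -0.34 and gives 57 genes higher and 323 lower against 136 and 104. With total counts 1 member in place of 2 is called in translation efficiency between the starved lines, and ULK1 footprints pass 2-fold at -1.15. A pseudocount of 5 leaves 1 member called in RNA between the starved lines in place of 2. Replacing the starved shM16 input by the complete-medium one changes the translation efficiency values between the starved lines. The median over 9 members turns from 0.39 to -0.58 and MAP1LC3B from 1.24 to -1.06. LAMP1 is then at -1.01, so MAP1LC3B and LAMP1 are called lower where MAP1LC3B and CTSD were called higher. Of all 2866 genes 154 are then called higher and 195 lower, against 140 and 157, and the all-gene median is -0.07. These shifts carry the RNA differences between media, whose cause was not tested. A minimum of 10 takes all genes called from 372 to 1079 in RNA, 240 to 756 in footprints and 297 to 857 in translation efficiency between the starved lines, and from 278 to 892, 416 to 1018 and 472 to 1082 between media, because more genes are tested. Where the minimum, the pseudocount or the scale moved the balance of calls by over 10 percentage points, the share called higher was 36.0% with total counts against 52.4% in RNA, 15.0% against 56.7% in footprints and 18.4% against 47.1% in translation efficiency between the starved lines. DESeq2 size factors gave 46.4% in those footprints. A pseudocount of 5 gave 73.1% there and 54.6% against 42.1% in RNA between media. No paired analysis was possible because the labels give no replicate numbers and each group has 1 library, so leaving out a replicate could not be run either. Depth limits ULK1, GABARAPL2, CTSD and MAP1LC3B most, with 11 to 69 footprint reads in each library.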
